A study of Homo sapiens with 38 samples.

Results

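The miRNAs hsa-miR-22-3p and hsa-miR-335-5p were followed through the small RNA released into the medium by DiFi, an established line of human colorectal cancer. They are 2 of the 1559 miRNA entries among 22549 small RNA features counted, and each was found in an entry of its own that lists no second name. They were selected because their levels (CPM, counts per 1000000 small RNA counts of the library) were high in exomeres and supermeres of flat cultures against small extracellular vesicles (sEV) of the same cultures. Values from those libraries are therefore a description and carry no test. Exomeres and supermeres are particles smaller than sEV that have no surrounding membrane.

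The RNA was treated with AlkB, an enzyme that removes methyl groups from RNA, before small RNA sequencing of 38 libraries in 11 groups. Medium of flat (2D) cultures came from 3 pools of 1360 mL, conditioned for 48 h without serum after growth with bovine serum. It was separated by ultracentrifugation (UC) into sEV (167000 g, 4 h), exomeres (167000 g, 16 h) and supermeres (367000 g, 16 h), with 3 libraries each. Medium of a hollow-fibre bioreactor (3D) came from 4 pools of about 400 mL, of which 60 mL aliquots were used, and was divided by the same UC steps (3 libraries each), by liquid chromatography (FPLC) into exomeres and supermeres (4 libraries each), and on a cushion density gradient into the fraction pools 6_7, 9_10 and 12 (4 libraries each). For the gradient, the labels speak of vesicles (light and heavy) and of material outside vesicles, but do not say which pool holds which. All groups are untreated DiFi of 1 line, replicates carry letters that are not tied to medium pools, and p-values therefore measure the spread between these libraries, which may in part be technical. Culture type cannot be told apart from medium pools, conditioning and serum history.

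Total counts ran from 81079 to 16991360 in 37 libraries. The 3D UC supermere library of replicate A held 46 counts, 2 of them miRNA, and neither member, so it was left out of CPM and shares and that group has 2 libraries. The 6 listed miRNAs of epithelium and intestine, the labelled cell type, made up 15.4% to 21.0% of miRNA counts in 2D sEV and 18.8% to 21.2% in 3D sEV. The same 6 made up 0.520% to 2.70% of miRNA counts in 2D exomeres, 2D supermeres and 3D exomeres, and 0.490% to 1.08% in 3D supermeres. Blood cell miRNAs summed to at most 0.375%, miR-122 of liver to at most 0.0412%, endothelial miRNAs to at most 0.0222% and mesenchymal and muscle miRNAs to at most 0.128% of miRNA counts in any library. In these purified particles a lower value can mean fewer particles of a kind or less of the RNA per particle, and the counts do not tell these apart.

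A miRNA hairpin is cut into a short duplex, of which usually 1 arm stays bound to an Argonaute protein and guides it to messages matching its seed, bases 2 to 8. Outside cells, miRNAs travel inside vesicles or bound to protein without a membrane. miR-22 is made by most tissues, has been studied in growth restraint and in the heart, and has TET2 among its reported targets. miR-335 lies in MEST, an imprinted gene, and is known for restraint of metastasis through SOX4 and tenascin C. The mature sequences of both members and of the opposite arms of their hairpins are shown in the 5′ to 3′ direction because arm and seed separate the members from their relatives. Capitals mark the seed, and the RefSeq table (GRCh38.p14) supplied the letters.
hsa-miR-22-3p: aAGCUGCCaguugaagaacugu
hsa-miR-22-5p: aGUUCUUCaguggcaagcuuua
hsa-miR-335-5p: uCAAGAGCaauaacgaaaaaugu
hsa-miR-335-3p: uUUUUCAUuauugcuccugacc

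The 2 members have different seeds, and no other mature miRNA among the 2370 of the RefSeq table has either seed. hsa-miR-22-3p is 22 bases long with 45.5% G and C, and hsa-miR-335-5p is 23 bases long with 30.4%, at or below which lie 3.54% of the 2370. Both end in UGU, as do 3.63% of the mature sequences. Neither holds GGAG (15.7% of the table) or CCCU (11.9%), 2 short motifs that have been described in vesicle-associated miRNAs, searched on the miRNA strand only. A missing motif says only that these letters are not in these sequences.

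hsa-miR-22-3p lies on the minus strand of chromosome 17 at chr17:1713914-1713935 and its 5p arm at chr17:1713952-1713973 (GRCh38). GENCODE 29 places the hairpin in an exon of the long non-coding RNA gene MIR22HG (chr17:1711493-1717174). hsa-miR-335-5p lies on the plus strand of chromosome 7 at chr7:130496126-130496148 and its 3p arm at chr7:130496162-130496183. That hairpin is within an intron of the protein-coding gene MEST (chr7:130486171-130506465), and an exon of the antisense gene AC007938.2 (chr7:130495794-130498427) covers it on the other strand. The strand setting of the authors' counting is not given in the sources used here, so reads of miR-335 and of that antisense exon cannot be told apart by strand.

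In flat cultures hsa-miR-22-3p stood at 3113, 3837 and 4789 CPM in the 3 sEV libraries, at 32983, 46355 and 16826 CPM in exomeres and at 56315, 53416 and 14785 CPM in supermeres, for replicates A, B and C. All 6 exomere and supermere libraries were above all 3 sEV libraries, and replicate C was the lowest of both particle groups. The mean CPM was 8.19-fold higher in exomeres and 10.6-fold higher in supermeres than in sEV. hsa-miR-335-5p stood at 2723, 3912 and 4904 CPM in sEV, at 23840, 23086 and 21591 CPM in exomeres and at 25019, 24810 and 25349 CPM in supermeres. Its exomere and supermere libraries lay within a narrow band, and the mean was 5.94-fold and 6.52-fold that of sEV. These are the values on which the 2 miRNAs were selected. As a share of miRNA counts, hsa-miR-22-3p was at 0.604%, 0.684% and 0.988% in sEV, 5.43%, 6.7% and 2.84% in exomeres and 9.10%, 8.72% and 3.94% in supermeres. hsa-miR-335-5p was at 0.528%, 0.697% and 1.01% in sEV, 3.92%, 3.34% and 3.64% in exomeres and 4.04%, 4.05% and 6.75% in supermeres. No exomere or supermere library overlapped sEV on this scale either. The fitted log2 fold changes, which rest on TMM scaling (trimmed mean of M-values, a correction for composition) instead of library totals, were 1.38 and 2.40 for hsa-miR-22-3p and 1.10 and 2.40 for hsa-miR-335-5p.

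**Figure D1:**
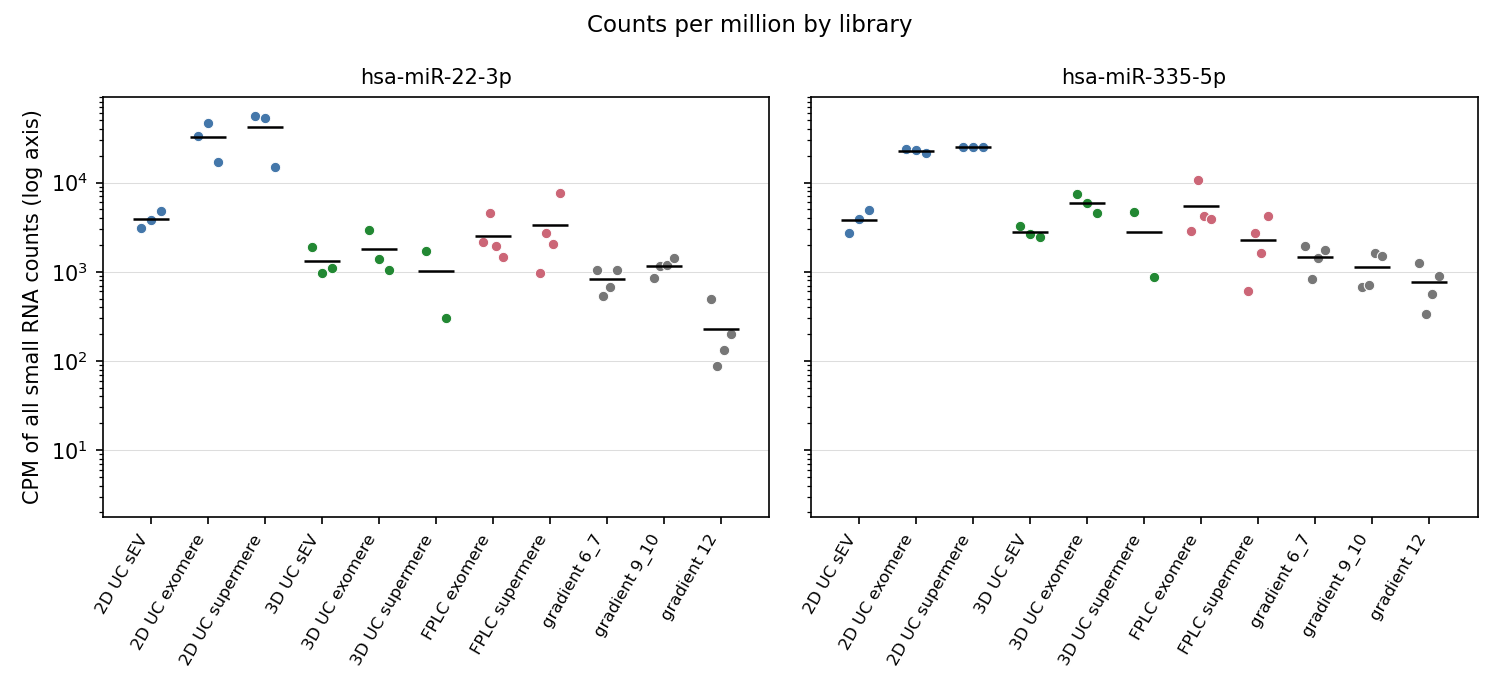
CPM (log axis) of hsa-miR-22-3p and hsa-miR-335-5p in each of 37 libraries, by group, with 1 point per library and a line at the group mean. The 2D exomere and supermere libraries stand above all others, while the 3D groups, FPLC and the gradient pools overlap one another over much of their range.

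As CPM, the excess outside vesicles was smaller in bioreactor medium. hsa-miR-22-3p had means of 1323 ± 514 CPM in 3D UC sEV (SD, n = 3), 1793 ± 995 CPM in exomeres (n = 3) and 1014 ± 1003 CPM in supermeres (n = 2), with overlapping ranges. hsa-miR-335-5p had 2787 ± 422 CPM in sEV, 5951 ± 1469 CPM in exomeres and 2762 ± 2664 CPM in supermeres, and its exomere libraries, from 4518 to 7454 CPM, were all above the sEV libraries, from 2430 to 3253 CPM. CPM moves with every other RNA class in a library. Y RNA, a small cytoplasmic RNA, took 66.4% to 83.9% of all counts in the 3D UC exomere libraries and 80.4% and 93.6% in the 2 supermere libraries, against 13.4% to 24.3% in 3D sEV and 4.12% to 14.3% in the 2D libraries. miRNA made up 23.4% to 39.9% of the counts of 3D sEV, 7.77% to 12.7% of those of 3D exomeres, and 7.27% and 1.62% of those of 3D supermeres. The levels were therefore also taken as a share of miRNA counts.

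As a share of miRNA counts, both members were higher in exomeres and supermeres than in sEV in 3D medium as well, and the libraries of the groups did not overlap. hsa-miR-22-3p made up 0.479%, 0.408% and 0.443% of miRNA counts in 3D UC sEV (replicates A, B and C), 2.30%, 1.81% and 1.29% in exomeres, and 2.37% and 1.88% in supermeres (B and C). The lowest exomere library stood above the highest sEV library, and the means were 4.06-fold and 4.79-fold that of sEV. hsa-miR-335-5p made up 0.816%, 1.14% and 0.976% in 3D sEV, 5.86%, 7.57% and 5.56% in exomeres, and 6.39% and 5.42% in supermeres. Every exomere and supermere library lay above every sEV library, and the means were 6.47-fold and 6.04-fold that of sEV. Exomeres and supermeres overlapped each other for both miRNAs. In exact permutation tests over the 560 assignments of the 8 libraries to the 3 groups (two-sided, 8 tests on shares in all, Benjamini-Hochberg adjusted), p was 0.0143 (adjusted 0.0457) for hsa-miR-22-3p and 0.0286 (adjusted 0.0457) for hsa-miR-335-5p. With the near-empty library counted at a share of 0 the adjusted permutation p was 0.239 and 0.189, and for CPM in place of the share 0.733 and 0.284. Leaving out any 1 of the 8 libraries but exomere replicate A ended the call for hsa-miR-22-3p (adjusted p from 0.0508 to 0.0952), and leaving out any of the 8 ended that for hsa-miR-335-5p (0.0508 to 0.122).

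**Figure D2:**
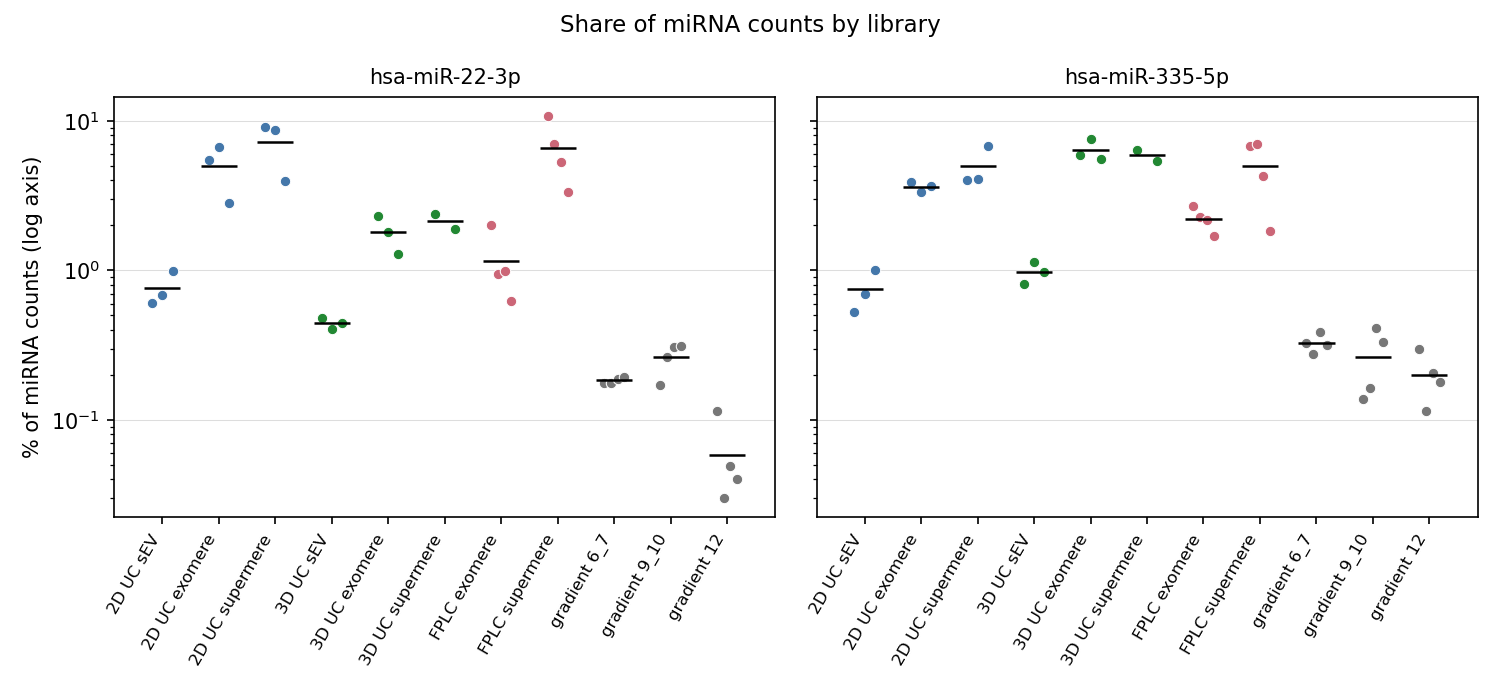
Share of miRNA counts (%, log axis) of hsa-miR-22-3p and hsa-miR-335-5p in each of 37 libraries, by group, with 1 point per library and a line at the group mean. Exomere and supermere libraries of UC in 2D and 3D lie above the sEV libraries for both miRNAs. Gradient pool 12, with hsa-miR-1246 at 96.5% to 98.6% of its miRNA counts, has the lowest mean for both. For hsa-miR-335-5p its libraries overlap those of the other pools.

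Ordered by mean share, hsa-miR-22-3p was highest in 2D UC supermeres (7.25 ± 2.88%, SD, n = 3), then FPLC supermeres (6.62 ± 3.18%, n = 4), 2D exomeres (4.99 ± 1.97%, n = 3), 3D UC supermeres (2.13 ± 0.346%, n = 2) and 3D UC exomeres (1.80 ± 0.504%, n = 3). FPLC exomeres followed (1.15 ± 0.604%, n = 4), then 2D sEV (0.759 ± 0.203%), 3D sEV (0.443 ± 0.0356%), gradient 9_10 (0.263 ± 0.0647%, n = 4), gradient 6_7 (0.184 ± 0.00745%) and gradient 12 (0.0587 ± 0.0387%). The first 3 groups overlapped in range, as did the next 4 from 3D supermeres to 2D sEV taken as neighbours, and gradient 9_10 overlapped gradient 6_7. For hsa-miR-335-5p the order was 3D exomeres (6.33 ± 1.09%), 3D supermeres (5.91 ± 0.682%), FPLC supermeres (4.95 ± 2.42%), 2D supermeres (4.95 ± 1.56%), 2D exomeres (3.63 ± 0.292%) and FPLC exomeres (2.20 ± 0.405%). Below these came 3D sEV (0.978 ± 0.163%), 2D sEV (0.746 ± 0.245%), gradient 6_7 (0.326 ± 0.0462%), gradient 9_10 (0.262 ± 0.133%) and gradient 12 (0.199 ± 0.0760%). Its first 4 groups overlapped as neighbours, as did the pair of sEV groups and the 3 gradient pools. With hsa-miR-1246, hsa-miR-1290 and entries numbered 3000 and up left out of the denominator, the mean of hsa-miR-22-3p was higher in FPLC supermeres (9.01 ± 2.31%) than in 2D supermeres (7.83 ± 2.98%), with overlapping ranges.

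Counting error is not small beside the spread between libraries in every group. In gradient 6_7 the 95% Wilson interval of hsa-miR-22-3p in replicate A alone was 0.167% to 0.189%, wider than the range of the 4 libraries (0.178% to 0.193%). The smallest count of a member in a usable library was 80, of hsa-miR-335-5p in gradient 9_10 replicate B, a share of 0.163% with a 95% Wilson interval of 0.131% to 0.203%. Such intervals cover counting error only, since PCR copies are not independent molecules.

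Between cultures the 2 miRNAs moved apart, as a description without a test. The mean share of hsa-miR-22-3p in 3D was 0.584 of that in 2D for sEV, 0.361 for exomeres and 0.293 for supermeres, and no ranges overlapped. For hsa-miR-335-5p the 3D mean was 1.31 times the 2D mean in sEV, 1.74 times in exomeres and 1.19 times in supermeres, with overlap in sEV and supermeres. The ratio of hsa-miR-22-3p to hsa-miR-335-5p within a library, which no scaling can change, shows the same. It ran from 0.977 to 1.14 in 2D sEV and from 0.357 to 0.587 in 3D sEV. In exomeres it ran from 0.779 to 2.01 in 2D and from 0.232 to 0.392 in 3D, and in supermeres from 0.583 to 2.25 and from 0.347 to 0.371. Every 3D UC library was below the 2D libraries of its particle. The 2 mature RNAs differ by 1 base in length, but ligation can favour 1 sequence over another, so a ratio of 1 does not show equal molecules.

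The test of the members across all features gave a weaker picture than the shares. edgeR's quasi-likelihood test with TMM scaling was fitted once to all 38 libraries and 7009 features, with Benjamini-Hochberg adjustment over all of them and calls at an adjusted p below 0.05. In 3D UC exomeres against sEV, where 10.1% of features were called, hsa-miR-22-3p had a log2 fold change of 0.53 ± 0.79 (SE, adjusted p = 0.775) and hsa-miR-335-5p of 1.23 ± 0.79 (adjusted p = 0.326), and neither was called. In supermeres against sEV (7.78% of features called) the values were -0.57 ± 0.82 and -0.29 ± 0.79 (adjusted p = 0.672 and 0.914). In supermeres against exomeres (0.371% called) they were -1.10 ± 0.83 and -1.52 ± 0.81 (adjusted p = 0.497 and 0.358).

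These calls depended on the scaling. With miRNA entries fitted alone, without the near-empty library, the edgeR log2 fold changes in 3D exomeres against sEV were 2.73 (adjusted p = 3.97e-07) and 3.44 (adjusted p = 4.66e-11), and in supermeres against sEV they were positive, 2.33 and 2.69 (adjusted p = 1.18e-05 and 1.86e-08). RLE factors (relative log expression, DESeq2's scaling) without that library gave 2.05 and 2.79 in exomeres (adjusted p = 0.0164 and 0.000365) and 2.08 and 2.52 in supermeres (adjusted p = 0.0232 and 0.00292). RLE factors rest on features with a count in every library. The near-empty library has counts in 16 features, so RLE values with it rest on 16 features at most. Library totals gave 0.44 and 1.09 in exomeres with no call. The direction in exomeres against sEV was up under every scaling tried, whereas in supermeres against sEV it was down under TMM, library totals and RLE with the near-empty library and up under RLE without it and in miRNA alone. Under TMM without the near-empty library hsa-miR-335-5p was at 0.07 in supermeres against sEV.

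**Figure D3:**
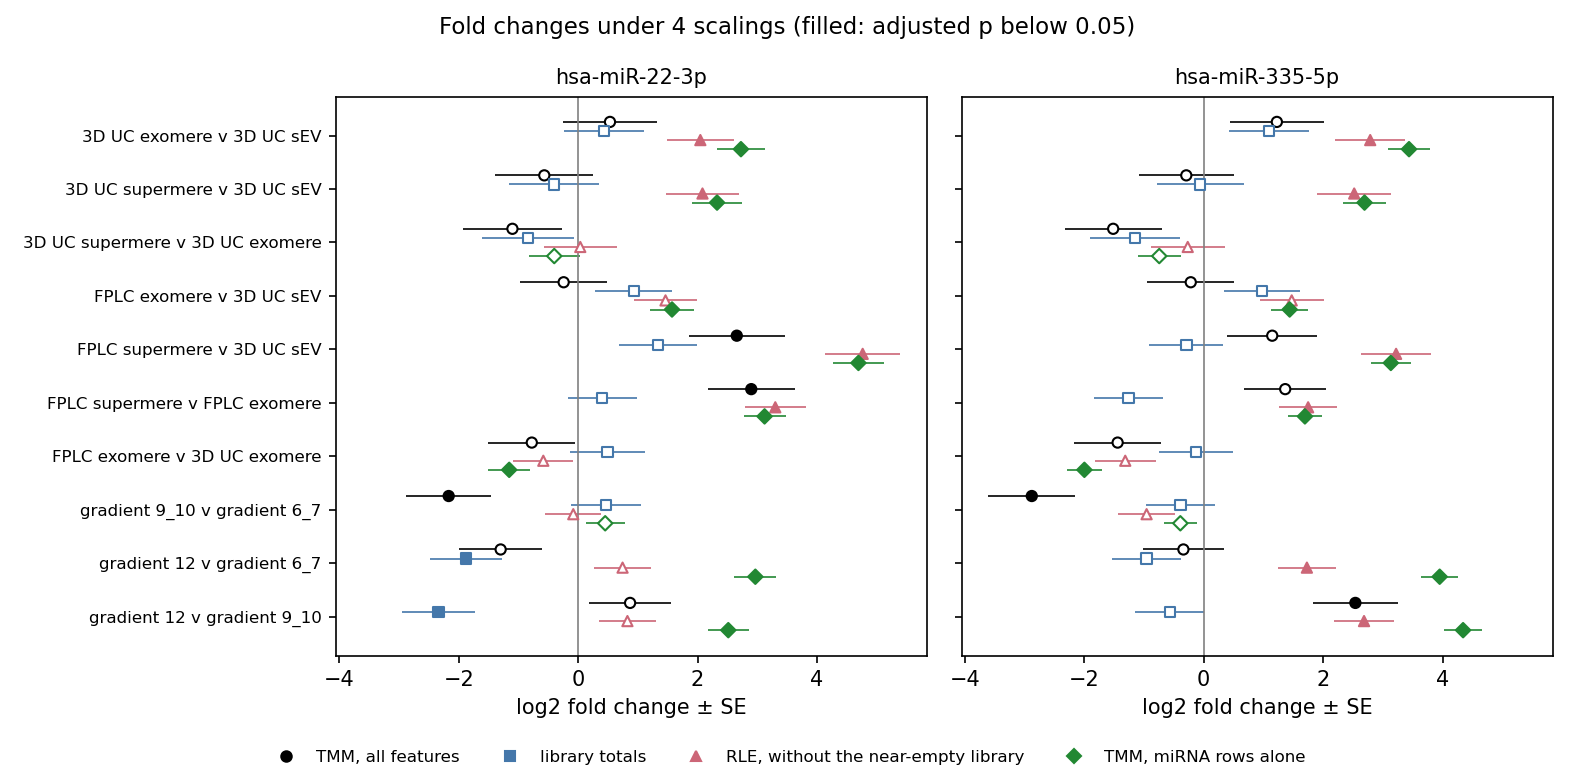
Log2 fold changes with SE of both members in 10 comparisons of 3D medium under 4 scalings, filled where the adjusted p is below 0.05. The 2 scalings that draw on miRNA alone or leave out the near-empty library lie to the right of TMM over all features in most comparisons, and the spread between scalings exceeds the SE.

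FPLC supermeres were the particles of 3D medium richest in hsa-miR-22-3p. It made up 2.02%, 0.949%, 0.994% and 0.624% of miRNA counts in FPLC exomeres (replicates A to D) and 10.8%, 7.03%, 5.29% and 3.35% in FPLC supermeres. All supermere libraries lay above all exomere libraries, 5.78-fold by the means, with an exact two-sided permutation p of 0.0286, the smallest that 4 against 4 allows (adjusted 0.0457). The adjusted permutation p was 0.0914 without any 1 of the 4 exomere libraries and 0.0571 without supermere replicate C. As CPM the fractions overlapped, at 2174, 4531, 1933 and 1449 in exomeres and 975, 2734, 2020 and 7640 in supermeres, where ribosomal RNA took 7.67% to 90.6% of counts. edgeR's log2 fold change was 2.90 ± 0.73 (adjusted p = 0.00235, with 9.03% of features called), and it stayed called in all 8 fits without 1 of these libraries (adjusted p from 0.00396 to 0.0195). By library totals it was 0.41 and by RLE factors with the near-empty library 0.21, with no call. Against 3D UC sEV it rose by 2.66 ± 0.81 (adjusted p = 0.0127, 10.1% of features called), and this call was lost without sEV replicate B (adjusted p = 0.121) or C (adjusted p = 0.104), by library totals (1.34, adjusted p = 0.113) and by RLE factors with the near-empty library (0.38, adjusted p = 0.687) or DESeq2 on the same libraries (0.38, adjusted p = 0.672).

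hsa-miR-335-5p showed a smaller step between the FPLC fractions. Its share was 2.67%, 2.26%, 2.19% and 1.69% in FPLC exomeres and 6.73%, 6.98%, 4.26% and 1.83% in FPLC supermeres. Replicate D of the supermeres fell within the exomere range and held hsa-miR-1246 at 67.3% of its miRNA counts, against 5.71% to 18.8% in the other supermere libraries. The exact permutation p was 0.114 (adjusted 0.152), and it was 0.0457 after adjustment without replicate D. With hsa-miR-1246, hsa-miR-1290 and entries numbered 3000 and up left out of the denominator, the shares were 2.31% to 3.32% in exomeres and 5.27% to 7.62% in supermeres, without overlap (adjusted exact permutation p = 0.0327). edgeR's log2 fold change was 1.36 ± 0.69 (adjusted p = 0.186), with the opposite sign by library totals (-1.26) and, as a call, by RLE with the near-empty library (-1.44, adjusted p = 0.0352). By RLE without that library the fold change was positive and called. Against 3D UC sEV edgeR's log2 fold change of hsa-miR-335-5p was 1.15 ± 0.75 (adjusted p = 0.363), 3.13 in miRNA alone and -0.29 by library totals.

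The ratio of hsa-miR-22-3p to hsa-miR-335-5p was 0.370 to 0.755 in FPLC exomeres and 1.01 to 1.83 in FPLC supermeres, without overlap. In UC of the same medium it was 0.232 to 0.392 in exomeres and 0.347 to 0.371 in supermeres. FPLC exomeres also held the epithelial and intestinal miRNAs at 10.6% to 20.5% of miRNA counts (mean 14.0%), against 18.8% to 21.2% (mean 20.0%) in 3D sEV, while FPLC supermeres held them at 0.193% to 0.558%. The part of that difference in the members' values was not tested. In FPLC exomeres against 3D sEV (1.90% of features called) edgeR gave log2 fold changes of -0.24 and -0.22 (adjusted p = 0.955 and 0.967), which were positive under library totals, RLE and miRNA alone. In FPLC against UC exomeres (9.40% called) they were -0.78 and -1.44 (adjusted p = 0.519 and 0.152), and in miRNA alone -1.16 and -2.00 (adjusted p = 0.00810 and 9.50e-07).

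Across both particles, the mean share in FPLC less that in UC of 3D medium was 1.92 percentage points for hsa-miR-22-3p (exact permutation p = 0.232 within exomeres and supermeres, adjusted 0.232) and -2.54 points for hsa-miR-335-5p (exact permutation p = 0.0286, adjusted 0.0457). The call for hsa-miR-335-5p was lost without any 1 of 11 of the 13 libraries, all but FPLC supermere replicates A and B (adjusted p from 0.0533 to 0.168). The edgeR test of the difference itself, supermere against exomere in FPLC less the same in UC, was added after the shares had been seen. It gave a log2 difference of 4.00 ± 1.11 for hsa-miR-22-3p (adjusted p = 0.0294, 1.97% of features called) and 2.88 ± 1.06 for hsa-miR-335-5p (adjusted p = 0.138). The first call was lost without the near-empty library (3.69, adjusted p = 0.0844), and also without exomere replicate A (adjusted p = 0.0944) or B (0.0650) of UC, supermere replicate C of UC (0.132), FPLC exomere replicate D (0.0507), or FPLC supermere replicate A (0.0527) or B (0.0528). A fit with the replicate letter as a block ended that call as well.

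In the gradient, both members were at their lowest shares of all groups. hsa-miR-22-3p made up 0.178%, 0.178%, 0.187% and 0.193% of miRNA counts in pool 6_7 (replicates A to D), 0.171%, 0.263%, 0.305% and 0.312% in pool 9_10, and 0.116%, 0.0300%, 0.0490% and 0.0401% in pool 12. Pool 12 lay below both other pools without overlap, and the exact permutation test over 34650 assignments gave p = 0.000866 (adjusted 0.00693). hsa-miR-335-5p made up 0.328%, 0.275%, 0.387% and 0.315% in pool 6_7, 0.137%, 0.163%, 0.413% and 0.334% in pool 9_10, and 0.298%, 0.115%, 0.205% and 0.179% in pool 12. Its pools overlapped (exact permutation p = 0.209, adjusted 0.232).

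A single other entry filled pool 12. hsa-miR-1246, whose sequence is also part of the spliceosomal U2 RNA, made up 96.5% to 98.6% of the miRNA counts of pool 12, against 3.24% to 49.1% in the other 2 pools. With hsa-miR-1246, hsa-miR-1290 and entries numbered 3000 and up left out (819 of the 1559), 4754 to 23831 miRNA counts remained per library of pool 12. Of these, hsa-miR-22-3p made up 3.36%, 2.23%, 1.90% and 1.65%, and hsa-miR-335-5p 8.69%, 8.56%, 7.92% and 7.37%. In pool 6_7 the same measure was 0.190% to 0.233% and 0.326% to 0.411%, so that pool 12 was 11.1-fold and 22.5-fold higher by the means, without overlap. For hsa-miR-22-3p pool 12 thus went from the lowest to the highest pool with the denominator, and for hsa-miR-335-5p from overlapping the other pools to above both. The adjusted exact permutation p was 0.00139 and 0.0102. On this measure pool 12 (2.29 ± 0.758% and 8.13 ± 0.611%, n = 4) lay near UC exomeres (1.98 ± 0.518% and 6.98 ± 1.08%) and supermeres (3.06 ± 0.785% and 8.49 ± 1.78%) of 3D medium, and pools 6_7 and 9_10 lay below 3D sEV.

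**Figure D4:**
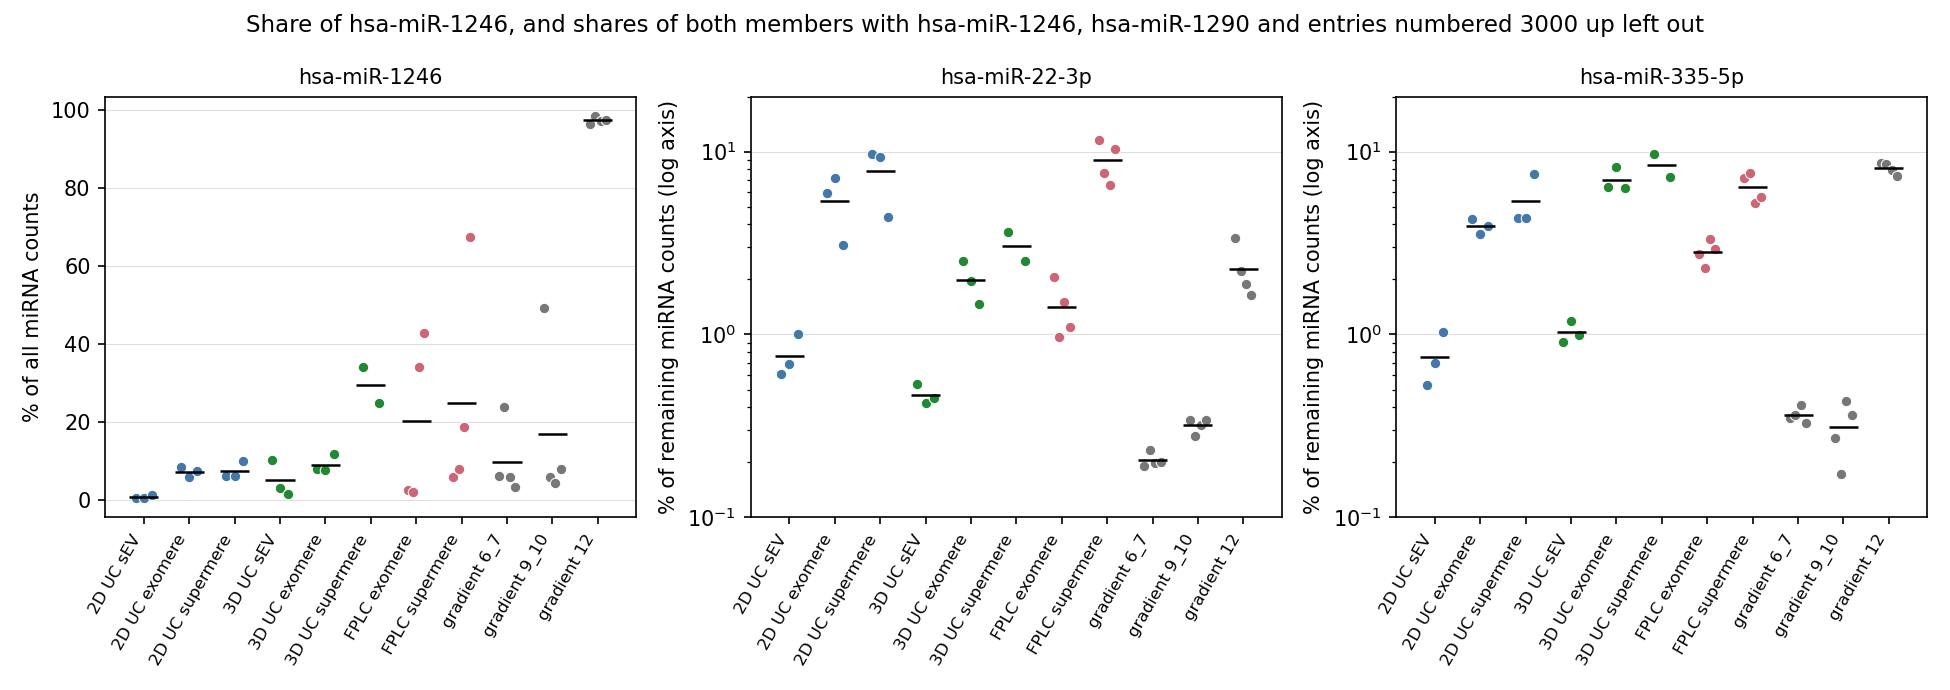
Left, hsa-miR-1246 as % of all miRNA counts. Middle and right, hsa-miR-22-3p and hsa-miR-335-5p as % (log axis) of the miRNA counts that remain without hsa-miR-1246, hsa-miR-1290 and entries numbered 3000 and up, with 1 point per library and a line at the group mean. Pool 12 stands at 96.5% to 98.6% for hsa-miR-1246. On the remaining counts it lies near UC exomeres and supermeres of 3D medium, far above pools 6_7 and 9_10. For hsa-miR-22-3p, supermeres of FPLC and of 2D lie higher than pool 12.

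The within-library ratio of the 2 members, free of any denominator, was 0.224 to 0.387 in pool 12, 0.483 to 0.645 in pool 6_7 and 0.738 to 1.61 in pool 9_10. These ranges did not overlap, and that of pool 12 was close to the range of UC exomeres of the same medium, 0.232 to 0.392. UC supermeres of that medium, at 0.347 to 0.371, lay within the range of pool 12. The ranges of 3D sEV (0.357 to 0.587) and FPLC exomeres (0.370 to 0.755) overlapped it, so the ratio does not set pool 12 apart from sEV. edgeR's TMM fit over all features called both members lower in pool 9_10 than in 6_7, hsa-miR-22-3p by -2.17 ± 0.71 (adjusted p = 0.0260) and hsa-miR-335-5p by -2.88 ± 0.73 (adjusted p = 0.00317), in a comparison with 14.0% of features called. The first value turned positive by library totals (0.47), in miRNA alone (0.45) and with only the 2 groups fitted (0.36). It also lost its call without pool 6_7 replicate D (adjusted p = 0.0823) or pool 9_10 replicate A (0.0947), B (0.226), C (0.0502) or D (0.0605). The second lost its call without pool 9_10 replicate B (adjusted p = 0.0665), by library totals (-0.39) and in miRNA alone (-0.39). The median log2 fold change over all features in that comparison was 3.35.

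In pool 12 against 6_7 (9.93% of features called) edgeR gave -1.30 ± 0.69 and -0.34 ± 0.68 (adjusted p = 0.275 and 1), and in miRNA alone 2.97 and 3.95 (adjusted p = 1.41e-09 and 1.72e-15). In pool 12 against 9_10 (6.18% called) hsa-miR-335-5p was higher by 2.54 ± 0.72 (adjusted p = 0.00978), which turned to -0.57 by library totals and was not called without pool 12 replicate A (adjusted p = 0.0527) or pool 9_10 replicate A (0.0657). hsa-miR-22-3p had 0.87 ± 0.69 (adjusted p = 0.425), with -2.34 by library totals (adjusted p = 0.00170) and 2.52 in miRNA alone (adjusted p = 9.19e-08).

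The opposite arms followed the members less closely. hsa-miR-22-5p stood at 54.2 to 72.5 CPM in 2D sEV, 75.0 to 92.6 CPM in 2D exomeres and 48.3 to 57.8 CPM in 2D supermeres, and its supermere libraries overlapped sEV. In 3D UC it was at 26.0 to 52.7 CPM in sEV, 0 to 3.85 CPM in exomeres and 2.66 and 4.83 CPM in supermeres. As a share of miRNA counts it was at 0.0104% to 0.0132% in 3D sEV and 0% to 0.00420% in exomeres. In 3D supermeres that share was 0.00664% and 0.0164%, overlapping sEV, so hsa-miR-22-5p was lower there as CPM only. The 5p arm fell in 3D exomeres against sEV by -3.70 ± 1.11 on the log2 scale (edgeR, adjusted p = 0.0132) and in FPLC supermeres against 3D sEV by -4.14 ± 1.05 (adjusted p = 0.00145). Both values were negative under every scaling tried, but RLE without the near-empty library gave no call in either (adjusted p = 0.255 and 0.308), and miRNA alone gave none in exomeres (adjusted p = 0.141). The mature 3p arm made up 91.5% to 100% of the counts of both arms in every usable library.

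hsa-miR-335-3p stood at 89.9 to 192.5 CPM in 2D sEV, 216.6 to 1007 CPM in 2D exomeres and 163.7 to 231.5 CPM in 2D supermeres. As a share of miRNA counts it was at 0.0968% to 0.233% in 3D sEV and 0.299% to 1.14% in 3D exomeres, without overlap. The mean share in 3D exomeres was 3.18-fold that of sEV. In 3D exomeres against sEV hsa-miR-335-3p had an edgeR log2 fold change of 0.04 ± 0.85 (adjusted p = 1), against 2.36 in miRNA alone (adjusted p = 3.6e-05), and in gradient pool 12 against 6_7 it fell by -3.90 ± 0.84 (adjusted p = 7.48e-05), with 0.46 in miRNA alone. hsa-miR-335-5p made up 95.5% to 99.4% of both arms in 2D exomeres and supermeres, 83.0% to 96.2% in exomeres and supermeres of 3D UC and FPLC, 80.9% to 89.4% in 3D sEV and 97.0% to 98.0% in pool 12. The lowest share of the 5p arm was 56.3%, in pool 9_10. The host transcript MIR22HG had at most 37 counts in any library and 0 in most libraries of 3D medium.

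Across 37 libraries and 505 miRNAs that passed the count filter, the 2 members were close to each other in pattern (Pearson r = 0.91 of log2 shares scaled to 1000000 miRNA counts, with 1 added). Libraries of 1 group share their particle type, depth differs between groups, and both members were selected on the 9 libraries of flat culture, so r is a description and the likeness of the members is in part set by their selection. The 5 miRNAs most like hsa-miR-22-3p were hsa-miR-130b-3p (0.94), hsa-miR-320a-3p (0.91), hsa-miR-629-5p (0.91), hsa-miR-320b (0.91) and hsa-miR-335-5p. Those most like hsa-miR-335-5p were hsa-miR-320a-3p (0.96), hsa-miR-671-5p (0.94), hsa-miR-10a-3p (0.94), hsa-miR-1307-5p (0.93) and hsa-miR-320b (0.93), with hsa-miR-22-3p in place 11. The median over all compared miRNAs was 0.05 and 0.01, and the members' own opposite arms had 0.17 and 0.57, in places 214 and 71.

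hsa-miR-320a-3p, from a hairpin that bypasses the nuclear enzyme Drosha, stood at a mean of 1.89% of miRNA counts in 2D sEV, 7.28% in 2D exomeres and 9.18% in 2D supermeres, and at 1.79%, 6.44% and 9.42% in the same particles of 3D. hsa-miR-320b had 0.585%, 5.32% and 10.1% in 2D and 0.373%, 2.31% and 1.82% in 3D. hsa-miR-130b-3p, a seed relative of miR-301, had 0.128%, 1.23% and 2.48% in 2D and 0.116%, 0.491% and 0.406% in 3D. The last 2 were therefore like hsa-miR-22-3p also in their lower 3D shares, and hsa-miR-320a-3p was like hsa-miR-335-5p in keeping its share in 3D. In FPLC supermeres against exomeres hsa-miR-130b-3p rose by 3.06 (edgeR, adjusted p = 0.00209) and hsa-miR-320b by 2.64 (adjusted p = 0.00648), beside 2.90 for hsa-miR-22-3p. By library totals they were at 1.00 and 0.17 with no call, and by RLE with the near-empty library at 0.66 and -0.06. Both were picked by likeness to hsa-miR-22-3p over libraries that include the FPLC ones. Their rise beside it is therefore in part set by that choice and does not test the likeness.

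Several miRNAs grouped by role fell where the members did not. Of 11 miRNAs tied to p53, the tumour suppressor, 7 were tested and 4 fell in 3D exomeres against sEV (median -3.96, against -0.43 over all 7009 features, of which 10.1% were called, 687 of these 706 lower), with hsa-miR-192-5p at -4.58 and hsa-miR-194-5p at -4.80 (edgeR, adjusted p = 3.68e-05 and 1.86e-05), hsa-miR-16-5p at -4.67 and hsa-miR-215-5p at -3.96 (adjusted p = 0.000101 and 0.00160). In FPLC supermeres against 3D sEV, where 10.1% of features were called (665 of these 707 lower), 6 fell and none rose, and 5 fell without the near-empty library. Of 9 metastasis-restraining miRNAs, the class in which hsa-miR-335-5p is placed, 8 were tested and 5 fell in 3D exomeres (10.1% of features called), with hsa-miR-200c-3p, which holds cells epithelial, at -4.26 (adjusted p = 0.000150) and hsa-miR-148a-3p at -2.53 (adjusted p = 0.0377). The other members that fell were hsa-miR-126-3p, hsa-miR-146a-5p and hsa-miR-146b-5p, and the same 5 of the 8 fell in FPLC supermeres against 3D sEV (median -4.53, against -1.51 over all features). hsa-miR-192-5p, hsa-miR-194-5p and hsa-miR-200c-3p are also on the list of epithelial and intestinal markers. These lists hold miRNAs only, whereas the 7009 features hold all RNA classes, so the shares called over all features are not those among miRNAs. With miRNA entries fitted alone, 212 were called in 3D exomeres against sEV. For scale, 505 miRNA entries passed the count filter in the fit over all features. A large part of all miRNAs was thus called, and whether the lists differ from other miRNAs was not tested.

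**Figure D5:**
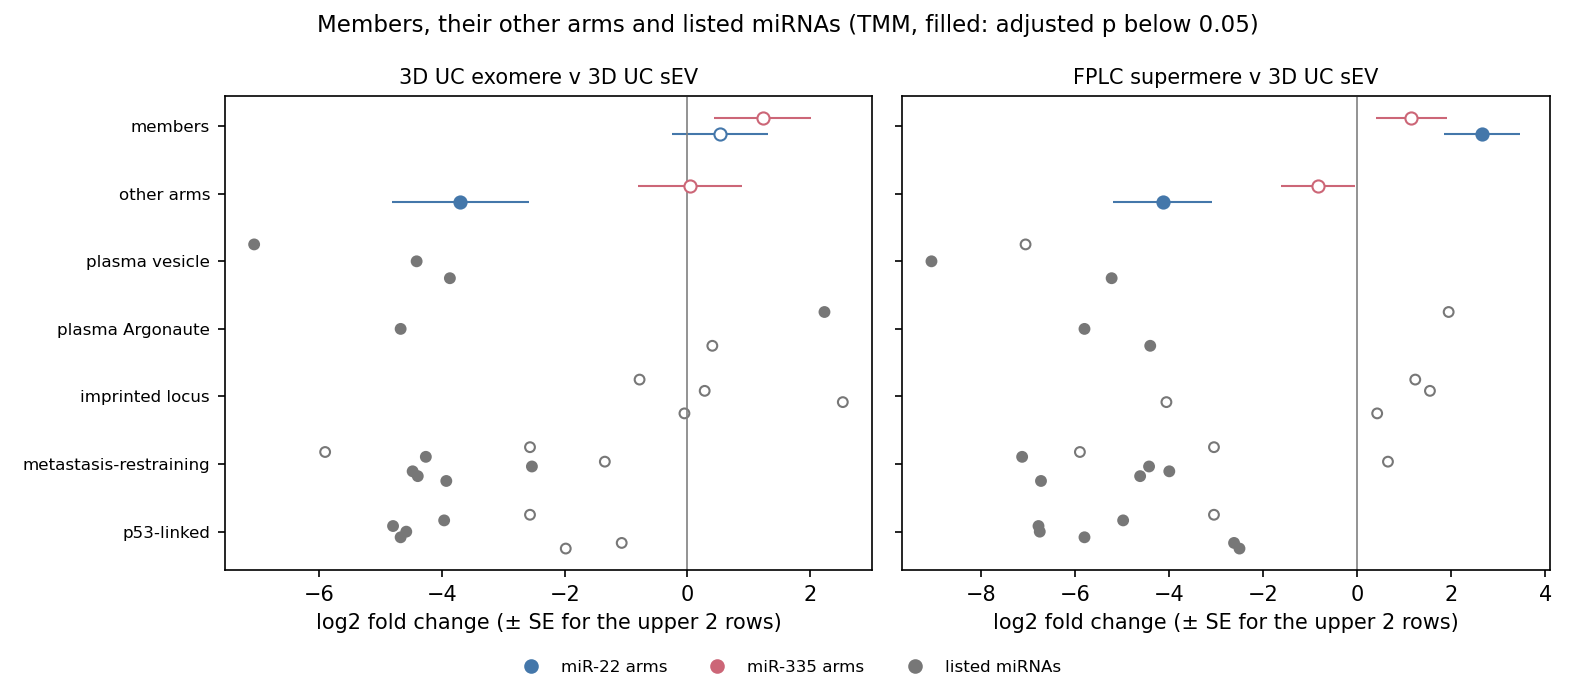
Log2 fold changes (TMM over all features, filled where the adjusted p is below 0.05) of the members and their opposite arms, with SE, and of the tested miRNAs of 5 lists, in 3D UC exomeres and in FPLC supermeres against 3D UC sEV. Most listed miRNAs lie left of 0, at -2.5 or lower, while both members lie right of it. Of the members, only hsa-miR-22-3p in FPLC supermeres is called. The imprinted-locus list had medians of 0.12 in 3D exomeres and 0.83 in FPLC supermeres, and the plasma Argonaute list 0.40 and -4.41.

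Of 15 miRNAs of imprinted loci, to which MEST and miR-335 also belong, 4 were tested. In 3D exomeres against sEV edgeR gave hsa-miR-675-5p at -0.78 (adjusted p = 0.782), hsa-miR-483-5p at 0.28 (adjusted p = 0.998), hsa-miR-296-3p at -0.05 (adjusted p = 1) and hsa-miR-296-5p at 2.53 (adjusted p = 0.355). In miRNA alone 3 of the 4 rose, in a fit that called 212 miRNA entries in this comparison. In the fit over all features 505 miRNA entries passed the count filter. In FPLC supermeres against exomeres, where 9.03% of features were called (164 of these 633 higher), 3 rose, hsa-miR-296-3p by 2.52 (adjusted p = 0.0425), hsa-miR-483-5p by 3.42 (adjusted p = 0.0185) and hsa-miR-675-5p by 3.62 (adjusted p = 0.0195). Without the near-empty library 2 of the 4 rose. By library totals, where 4046 of 7009 features were called, 1 fell. Of the 3 miRNAs reported bound to Argonaute outside vesicles in plasma, hsa-miR-92a-3p rose in 3D exomeres against sEV by 2.23 (adjusted p = 0.0465), a call lost without the near-empty library. hsa-miR-16-5p fell by -4.67 (adjusted p = 0.000101), and hsa-miR-122-5p had 0.40 (adjusted p = 0.954). Of 3 miRNAs reported in plasma vesicles, all fell in 3D exomeres against sEV (10.1% of features called), hsa-let-7a-5p by -3.87 (adjusted p = 0.000499) and hsa-miR-142-3p by -4.41 (adjusted p = 0.000896), with hsa-miR-150-5p at 0 counts in exomeres. The comparisons with 3D sEV share its 3 libraries, and each is given for its own values.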

How the data were processed

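Small RNA libraries were trimmed and aligned by the authors with cutadapt 4.5 and Bowtie 1.3.1 to GRCh38.p13, with FastQC 0.12.1 for quality, per the submitters' processing notes. The counting tool and its annotation are not given in the sources used here. The deposited table holds estimated counts per feature, since 6.71% of its values are not whole (tolerance 1e-06). Values were rounded for fitting, and all values of both members were whole. CPM and shares of miRNA counts were computed in 37 libraries with at least 1000 counts.

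The members, lists and tests were chosen with earlier results of these data known. edgeR 4.0.16 (R 4.3.3) fitted quasi-likelihood models with robust dispersion, TMM factors (0.0553 to 13.6) and filterByExpr at a minimum count of 10 to all 38 libraries and 11 group means, giving 7009 features, 27 residual degrees of freedom and a biological coefficient of variation of 1.11. Only comparisons among 3D libraries were tested, with Benjamini-Hochberg adjustment over all features. Shares were compared with exact two-sided permutation tests (scipy 1.17.1). Alternatives were library totals, RLE factors, miRNA entries alone, no count filter, only the 2 compared groups, DESeq2 1.42.0, a replicate block and leaving out each library. Chosen after seeing the data were 3 of these (RLE and DESeq2 without the near-empty library, and the FPLC minus UC difference). The fitting was tested on simulated data. Named were the members, their opposite arms, MIR22HG, the 5 miRNAs most alike in pattern to each member, the 2 tested members of each list described with the highest mean CPM, and members that a count of 5 or fewer refers to. In addition, hsa-miR-122-5p, hsa-miR-150-5p and hsa-miR-296-5p were added after their values were seen. Of the lists drawn up, 1 is not reported here.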

Additional observations from a re-analysis of the deposited data

Results flagged for a closer look

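The step of hsa-miR-22-3p from exomeres to supermeres differed between the separation methods applied to 3D medium. The log2 difference of fold changes, FPLC minus UC, was 4.00 ± 1.11 (SE, edgeR, adjusted p = 0.0294 over 7009 features), from a fold change of 2.90 in FPLC, where all 4 supermere libraries had a higher share than all 4 exomere libraries, and -1.10 in UC, where the shares overlapped. The test was added after the shares had been seen, and the call was lost without the near-empty supermere library (3.69, adjusted p = 0.0844). A fit with the replicate letter as a block ended the call as well. By library totals the difference was 1.25 (adjusted p = 0.771), and in miRNA entries alone 3.52 (adjusted p = 7.38e-06).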

How the results depend on the processing

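Values below are log2 fold changes that changed direction or crossed an adjusted p of 0.05 relative to TMM over all 38 libraries. The cause was not tested. RLE factors and DESeq2 on all libraries scale on features with a count in every library, and the near-empty library has counts in 16. With RLE factors without the near-empty library, hsa-miR-22-3p and hsa-miR-335-5p were at 2.05 and 2.79 in 3D exomeres against sEV, 2.08 and 2.52 in 3D supermeres against sEV, 1.46 and 1.47 in FPLC exomeres against 3D sEV, -0.081 and -0.96 in pool 9_10 against 6_7 and 0.74 and 1.73 in pool 12 against 6_7. hsa-miR-22-3p alone changed to 0.036 in 3D supermeres against exomeres. hsa-miR-335-5p alone changed to 3.22 in FPLC supermeres against 3D sEV and 1.75 in FPLC supermeres against exomeres. With miRNA entries alone without that library, hsa-miR-22-3p and hsa-miR-335-5p were at 2.73 and 3.44 in 3D exomeres against sEV, 2.33 and 2.69 in 3D supermeres against sEV, 1.57 and 1.44 in FPLC exomeres against 3D sEV, -1.16 and -2.00 in FPLC against UC exomeres, 0.45 and -0.39 in pool 9_10 against 6_7 and 2.97 and 3.95 in pool 12 against 6_7. hsa-miR-22-3p alone changed to 2.52 in pool 12 against 9_10. hsa-miR-335-5p alone changed to 3.13 in FPLC supermeres against 3D sEV, 1.70 in FPLC supermeres against exomeres and 2.44 in the FPLC minus UC difference. With only the 2 compared groups fitted, hsa-miR-22-3p and hsa-miR-335-5p were at 1.80 and 2.54 in 3D exomeres against sEV, 1.21 and 1.48 in 3D supermeres against sEV, 0.69 and 0.64 in FPLC exomeres against 3D sEV, 0.36 and -0.47 in pool 9_10 against 6_7 and 0.76 and 1.68 in pool 12 against 6_7. hsa-miR-22-3p alone changed to 0.061 in 3D supermeres against exomeres and 1.60 in pool 12 against 9_10. hsa-miR-335-5p alone changed to 2.05 in FPLC supermeres against 3D sEV, 2.31 in FPLC supermeres against exomeres and -1.74 in FPLC against UC exomeres. With DESeq2 without that library, hsa-miR-22-3p and hsa-miR-335-5p were at 2.05 and 2.79 in 3D exomeres against sEV, 2.08 and 2.52 in 3D supermeres against sEV, 1.46 and 1.47 in FPLC exomeres against 3D sEV and 0.74 and 1.73 in pool 12 against 6_7. hsa-miR-22-3p alone changed to 0.036 in 3D supermeres against exomeres and -0.081 in pool 9_10 against 6_7. hsa-miR-335-5p alone changed to 3.22 in FPLC supermeres against 3D sEV, 1.75 in FPLC supermeres against exomeres and -1.31 in FPLC against UC exomeres. With DESeq2 on all libraries, hsa-miR-22-3p and hsa-miR-335-5p were at -2.08 and -1.74 in 3D supermeres against sEV, -2.46 and -2.86 in 3D supermeres against exomeres, 0.17 and 0.27 in FPLC exomeres against 3D sEV, 0.38 and -1.17 in FPLC supermeres against 3D sEV and 0.21 and -1.44 in FPLC supermeres against exomeres. hsa-miR-22-3p alone changed to -0.62 in pool 9_10 against 6_7. hsa-miR-335-5p alone changed to 0.58 in pool 12 against 6_7. With RLE factors on all libraries, hsa-miR-22-3p and hsa-miR-335-5p were at 0.17 and 0.27 in FPLC exomeres against 3D sEV, 0.38 and -1.17 in FPLC supermeres against 3D sEV and 0.21 and -1.44 in FPLC supermeres against exomeres. hsa-miR-22-3p alone changed to -0.62 in pool 9_10 against 6_7 and 2.85 in the FPLC minus UC difference. hsa-miR-335-5p alone changed to -2.94 in 3D supermeres against exomeres and 0.58 in pool 12 against 6_7. With library totals, hsa-miR-22-3p and hsa-miR-335-5p were at 0.93 and 0.97 in FPLC exomeres against 3D sEV, 1.34 and -0.29 in FPLC supermeres against 3D sEV, 0.41 and -1.26 in FPLC supermeres against exomeres, 0.47 and -0.39 in pool 9_10 against 6_7, -2.34 and -0.57 in pool 12 against 9_10 and 1.25 and -0.11 in the FPLC minus UC difference. hsa-miR-22-3p alone changed to 0.49 in FPLC against UC exomeres and -1.87 in pool 12 against 6_7. With no filter on low counts, hsa-miR-22-3p and hsa-miR-335-5p were at -0.93 and -1.68 in pool 9_10 against 6_7. hsa-miR-22-3p alone changed to 4.15 in the FPLC minus UC difference. hsa-miR-335-5p alone changed to 0.68 in pool 12 against 6_7. With TMM without the near-empty library, hsa-miR-22-3p changed to 3.69 in the FPLC minus UC difference. hsa-miR-335-5p alone changed to 0.073 in 3D supermeres against sEV.

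Without 1 library at a time the log2 fold changes ranged from -1.14 to 0.073 for hsa-miR-335-5p in 3D supermeres against sEV, -0.50 to 0.23 for hsa-miR-22-3p in FPLC exomeres against 3D sEV, -0.59 to 0.0093 for hsa-miR-335-5p in FPLC exomeres against 3D sEV, 2.45 to 3.06 for hsa-miR-22-3p in FPLC supermeres against 3D sEV, -2.31 to -1.03 for hsa-miR-22-3p in pool 9_10 against 6_7, -3.06 to -1.66 for hsa-miR-335-5p in pool 9_10 against 6_7, 2.20 to 3.34 for hsa-miR-335-5p in pool 12 against 9_10, 3.48 to 4.77 for hsa-miR-22-3p in the FPLC minus UC difference, and of all such values 149 kept direction and side of the threshold, 17 lost their call and 4 changed sign (0.073, 0.23, 0.027 and 0.0093). Adjusted permutation p-values of the shares ranged from 0.0381 to 0.0952 for hsa-miR-22-3p in the 3 UC particles of 3D, 0.0457 to 0.0914 for hsa-miR-22-3p in FPLC supermeres against exomeres, 0.0508 to 0.122 for hsa-miR-335-5p in the 3 UC particles of 3D, 0.0457 to 0.209 for hsa-miR-335-5p in FPLC supermeres against exomeres, 0.0457 to 0.168 for hsa-miR-335-5p in FPLC against UC.

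In exact permutation tests of shares, the adjusted p for hsa-miR-22-3p was 0.733 with CPM and 0.239 with all libraries kept in the 3 UC particles of 3D, and 0.733 and 0.114 in FPLC supermeres against exomeres. Keeping the near-empty library leaves the FPLC libraries and their unadjusted exact permutation p of 0.0286 unchanged. The value of 0.114 comes from the adjustment over the 8 tests alone. For hsa-miR-335-5p the adjusted p was 0.284 with CPM and 0.189 with all libraries kept in the UC particles, and 0.733 and 0.261 in FPLC against UC. With the miRNA denominator without hsa-miR-1246, hsa-miR-1290 and entries numbered 3000 and up it fell for hsa-miR-335-5p to 0.0102 in the gradient and 0.0327 in FPLC supermeres against exomeres. Over all alternatives of the share tests other than leaving out 1 library, 22 results kept their side of the threshold, 8 lost their call and 2 gained one.

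The number of features called moved by over 1.5 times with the setting in every comparison, for instance from 706 to 212 in 3D exomeres against sEV (2.69% higher, up to 41.5%), from 545 to between 142 and 1699 in 3D supermeres against sEV (5.69% higher, 0% to 80.1%) and from 26 to between 15 and 1970 in 3D supermeres against exomeres (34.6%, 0% to 91.8%). It moved from 133 to between 0 and 239 in FPLC exomeres against 3D sEV (1.5%, 0% to 100%), from 707 to between 246 and 1873 in FPLC supermeres against 3D sEV (5.94%, 0.160% to 47.8%) and from 633 to between 234 and 4046 in FPLC supermeres against exomeres (25.9%, 0.236% to 43.6%). For FPLC against UC exomeres it moved from 659 to between 157 and 1173 (66.3%, 51.8% to 92.7%), for pool 9_10 against 6_7 from 979 to between 10 and 3568 (50.5%, 30.0% to 99.6%), for pool 12 against 6_7 from 696 to between 122 and 1233 (29.3%, 18.5% to 78.8%), for pool 12 against 9_10 from 433 to between 97 and 3861 (54.5%, 1.55% to 56.8%) and for the FPLC minus UC difference from 138 to between 29 and 472 (42.8%, 0.636% to 65.5%).

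Correlations between libraries of the same letter were small: of 32 same-letter pairs 1 was above 0.1 (range -0.0983 to 0.146). Over 8 comparisons, in which libraries recur, 12 of 28 matches were best with the own letter. These were 3 of 3 in 3D exomeres against sEV and 0 of 3 in FPLC exomeres against 3D sEV. Such counts do not settle whether the letters mark pairs. With the letter as a replicate block, the FPLC minus UC difference of hsa-miR-22-3p was 3.81 (edgeR, adjusted p = 0.0613), no other call of a member changed, and features called went from 659 to 413 in FPLC against UC exomeres and from 138 to 63 for that difference. Depth limits pool 9_10 most, with 81079 to 490374 counts, and the remaining miRNA counts of pool 12.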
